A study of Mus musculus with 9 samples.

Results

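The genes described here encode the nuclear subunits and assembly factors of the mitochondrial respiratory chain and ATP synthase, measured in Reissner's membrane of the mouse cochlea. They were chosen by symbol: every annotated gene beginning with Nduf, Uqcr, Cox4, Cox5, Cox6, Cox7, Cox8 or Atp5, plus Sdha, Sdhb, Sdhc, Sdhd, Cyc1 and Cycs. That gave 92 of the 18193 genes with a probe set of their own. Each was represented by its brightest probe set over the 9 arrays. By role they were 34 subunits and 8 assembly factors of complex I, 4 subunits of complex II, 9 of complex III, cytochrome c, 18 of complex IV, the supercomplex factor Cox7a2l and 17 of ATP synthase. Probe sets shared by several genes were not used, so genes found only on such probe sets, such as Ndufa11 and Ndufs6 of complex I, are missing.

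Reissner's membrane is a thin sheet of epithelial and mesothelial cells between the endolymph and perilymph. The tissue came from adult mice of a strain that the labels do not name, with no genetic change named. Fresh tissue went straight to RNA extraction, incubated tissue was held 24 h as explants, and the dexamethasone group had 24 h as explants with 100 nM of this synthetic glucocorticoid. For arrays B and C of that group the label has the unit mM. Each of these 3 groups had 3 arrays, lettered A to C. Each biological sample was a pool of membranes run on 3 chips, so the spread behind every p-value is that between chips and can be purely technical. Precision is limited by having 3 arrays in a group.

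In the respiratory chain, complex I takes electrons from NADH and complex II takes them from succinate, while complex III passes them through cytochrome c to complex IV, which reduces oxygen. Complexes I, III and IV pump protons across the inner mitochondrial membrane, and ATP synthase uses the resulting gradient to make ATP. All the complexes except complex II also contain subunits encoded in mitochondrial DNA. None of the 13 mitochondrially encoded messenger RNAs was matched on the array, so the values below are of nuclear transcripts only.

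Signals are linear array intensities that the authors scaled to a common target on every array. Changes are differences of group means of log2(signal + 32), given with their standard error (SE, n = 3 arrays per group). They come from a single limma fit over the 18913 probe sets with 3 or more arrays at a signal of 200 or higher. A gene is said to have risen or fallen where the Benjamini-Hochberg adjusted p was under 0.05. Of the 92 genes, 86 were tested. The other 6 were too dim: Ndufb4, Cox4i2, Cox6a2, Cox7b2, Cox7c and Ndufa4l2. On their arrays Ndufb4, Cox7b2 and Cox7c reached at most 52, 28.7 and 212, and 2 further probe sets of Ndufb4 were shared with other genes. A gene bright in a single group can pass this signal filter through that group alone.

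On incubation for 24 h, 51 of the 86 tested genes rose, 13 fell and the remaining 22 did not pass. The rises included the complex I subunits Ndufb6 and Ndufs4, the c ring gene Atp5g1 and the assembly factor Ndufaf4, all more than 2-fold, and the falls Sdha of complex II, Cox8a of complex IV and the supercomplex factor Cox7a2l. Of all tested probe sets, 35.0% rose and 40.1% fell, and in total 75.1% were called, so a call by itself sets no gene apart here. The median change of the 86 genes was 0.21, against -0.05 for all tested probe sets. Arrays of the 2 groups did not overlap for 67 of the 86 genes, against 76.8% of all tested probe sets. The genes took up 1.74 ± 0.015% of the summed signal in fresh arrays and 1.93 ± 0.039% in incubated arrays (SD, n = 3). The dexamethasone arrays lay between them, at 1.81 ± 0.032%, without overlapping either group.

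The direction of many small changes depended on how arrays were scaled to each other. With median centring or scaling to the hybridization controls, the median of all tested probe sets moved from -0.05 to 0.28 and 0.27. Under the deposited scaling and 3 others, 46 rises and 5 falls were kept, against 33.8% and 22.8% of all tested probe sets. Other probe sets of a gene did not always share its call. Of 23 genes that rose and had another tested probe set, all others rose for 15 and none for 3, and at least 1 fell for 4. Of 6 such genes that fell, all others fell for 3 and none for 3, and at least 1 rose for 2. Relative to the median of all tested probe sets the 86 genes lay 0.255 higher as deposited and 0.125 higher under quantile normalization. Median centring (0.255) and hybridization-control scaling (0.271) treat all probe sets of an array alike, so they could hardly change this excess. Over the 4 scalings it was 0.12 to 0.31 for complex I and 0.40 to 0.53 for complex II. It was 0.26 to 0.45 for complex III and 0.10 to 0.23 for ATP synthase, with the quantile value lowest for each complex. For complex IV it was -0.07 to 0.03.

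**Figure D1:**
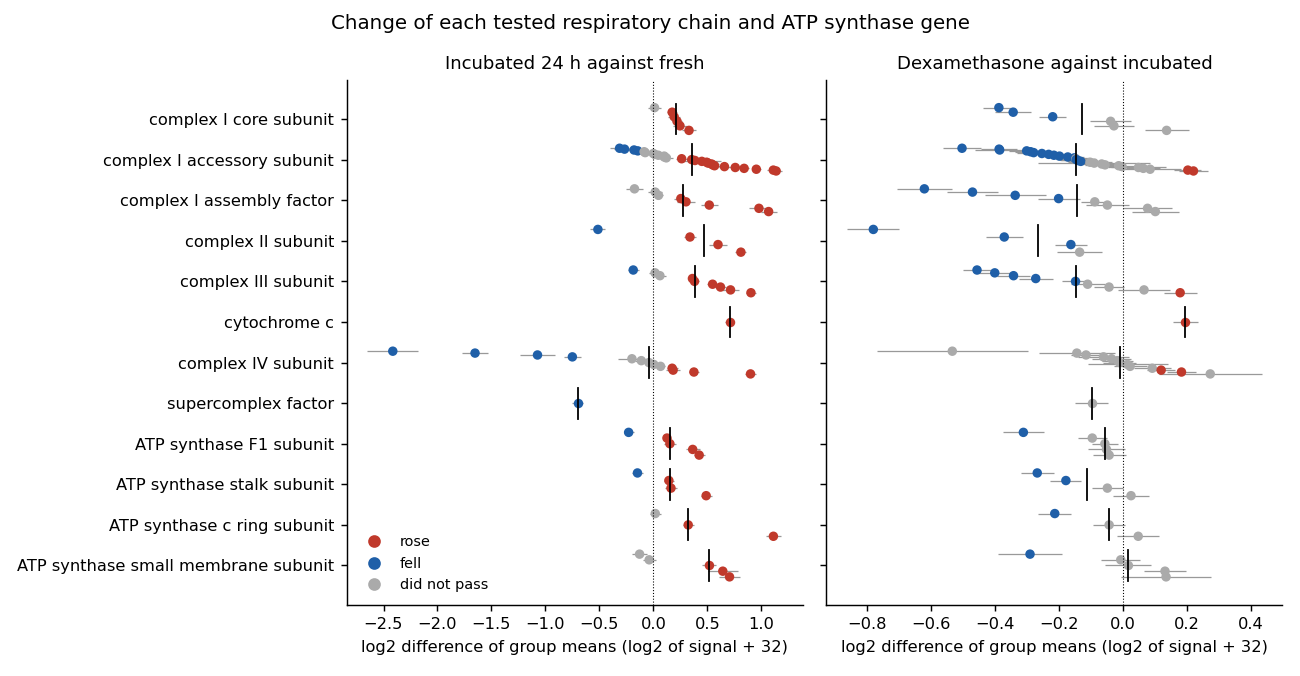
Change of each tested gene by its role, as the difference of group means of log2(signal + 32) with its SE, for incubated against fresh (left) and dexamethasone against incubated (right); black bars are medians and colours give the result of the limma test. On incubation most complex I, II and III points lie above 0 while complex IV spreads from -2.41 to 0.90, its 3 lowest points being genes under 200 on every incubated array, and with dexamethasone 35 of 86 genes fell.

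The share of all probe sets that rose on incubation differed with brightness. It was 31.0% under a mean signal of 2000, 49.9% at 2000 to 5000, 53.7% at 5000 to 10000 and 43.1% above. In the middle bands 19 of 25 and 15 of 23 respiratory chain and ATP synthase genes rose, with median changes of 0.38 and 0.36 against 0.14 and 0.20 for all probe sets. Below them 8 of 16 rose and 4 fell. Among the 22 genes above 10000, 9 rose and 5 fell, with a median of 0.01 against 0.05 for all probe sets of that brightness.

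The tissue changed in culture in other ways that moved with the groups. All 8 epithelial markers rose, and their summed signal went from 29201 to 30405 in fresh arrays to 71577 to 73649.6 in incubated and 82979 to 86924 in dexamethasone arrays. All 5 markers of cochlear fibrocytes fell (summed signal 58737 to 60408, then 2133 to 2202 and 2078 to 2255), as did all 5 of strial marginal cells (36774 to 38661, then 11617 to 11945 and 11518 to 12386). Of 7 skeletal muscle markers 4 were tested and all 4 fell, from a summed 1455 to 1582 in fresh arrays to 232 to 320.1 in incubated and 254 to 281 in dexamethasone arrays. All 6 neuron markers fell as well (16468 to 17538, then 168 to 233 and 207 to 266), and of 4 mesothelial markers the single one tested, Msln, rose at least 6.01-fold (adjusted p = 3.32e-12). The ratio of 3' to 5' signal for Gapdh, a measure of RNA integrity and amplification, was 6.91 to 7.53 in fresh, 3.46 to 3.88 in incubated and 5.02 to 5.47 in dexamethasone arrays. For actin this ratio was 3.97 to 4.26, 1.86 to 1.96 and 1.79 to 1.96 in that order, so incubated and dexamethasone arrays overlapped. Of the other marker lists, 2 tested hair cell, 4 supporting cell, 3 strial intermediate cell, 2 erythrocyte, 1 endothelial and 1 bone cell marker all fell. The tested neuron, skeletal muscle, hair cell, erythrocyte and bone cell markers passed the signal filter through the fresh arrays alone. A fall on incubation was therefore the direction open to them, and their number of falls carries no further information. Of the strial intermediate cell markers, 3 reached 200 on a fresh array, but only 1 did after incubation and 0 with dexamethasone. Of the supporting cell markers 4 reached it when fresh, 0 after incubation and 2 with dexamethasone. Where the fresh arrays alone carried such a marker past the filter, its fall likewise carries no further information. Msln passed through arrays of cultured tissue alone, so a rise was the direction open to it. Of 6 macrophage markers 4 rose and 1 fell, and of 2 Schwann cell markers 1 rose and 1 fell. Markers were also called with dexamethasone against incubated, where 27.1% of all tested probe sets rose and 25.5% fell. There 7 of 8 epithelial, 3 of 4 supporting cell, 2 of 2 Schwann cell, 3 of 6 macrophage, 1 of 2 hair cell, 2 of 5 fibrocyte, 1 of 6 neuron and the single endothelial and bone cell markers rose. By contrast 2 of 2 erythrocyte, 2 of 5 strial marginal, 1 of 3 strial intermediate, 1 of 8 epithelial, 1 of 6 macrophage, 1 of 5 fibrocyte and 1 of 6 neuron markers and Msln fell, and no skeletal muscle marker was called. The hair cell, neuron, bone cell and erythrocyte markers here were under 200 on every array of both groups. Supporting cell markers were under 200 on every incubated array. No epithelial, Schwann cell, endothelial or bone cell rise was kept in all 4 scalings, and of the macrophage rises 1 was. The supporting cell, fibrocyte, hair cell and neuron rises and the falls were all kept. The epithelial median of 0.29 was -0.20 under hybridization-control scaling. The part of these cell type and RNA differences in the results was not tested. In a bulk sample, fewer cells of a type and less RNA per cell cannot be told apart.

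Several of these genes hold, near their starts, letters that match motifs of known regulators of respiratory genes. The transcription factor NRF1 was identified through the cytochrome c promoter, and GABP (an ETS factor, also called NRF2) and YY1 also bind promoters of such genes. RefSeq promoter windows of 300 bases (250 before the start and 50 from it, build GRCm38.p6) were found for 75 of the 92 genes and searched on both strands. The NRF1 letters GCGCATGCG stood in 10 of the 75 (13.3%), against 1.95% of 27025 genes with a window. The ETS letters CCGGAAG stood in 19 (25.3%, against 9.93%) and the YY1 letters AAGATGGCG in 7 (9.33%, against 1.64%). No match overlapped a match to another of the motifs. In 6 of the 10 genes the NRF1 letters matched on both strands at overlapping positions. Among the 42 genes with a window that rose on incubation, 7 (16.7%) held the NRF1 letters, 12 (28.6%) the ETS letters and 3 (7.14%) the YY1 letters. Among the other 30 tested genes these were 3 (10.0%), 7 (23.3%) and 4 (13.3%). Of the 30 genes with a window that fell with dexamethasone, 6 held the NRF1 letters, 8 the ETS letters and 4 the YY1 letters, against 4, 11 and 3 of the other 42. A match is a description of the letters, not evidence of binding. The stretches below, printed 5′ to 3′ on the gene's strand with the NRF1 or YY1 letters in capitals, are the NRF1 matches of 3 genes that rose on incubation (Cycs, Atp5g2 and Ndufaf4) and 2 whose brightest probe set did not pass (Atp5k and Cox6a1), and the single YY1 match that lies before the start (Atp5j). They come from chr6:50566597-50566655, minus strand (Cycs), chr15:102671055-102671114, minus strand (Atp5g2), chr4:24897945-24898004, plus strand (Ndufaf4), chr5:108434415-108434474, minus strand (Atp5k), chr5:115349086-115349145, minus strand (Cox6a1) and chr16:84835031-84835089, minus strand (Atp5j). All 6 stretches lie before the annotated start, with the match beginning 61, 42, 113, 50, 162 and 88 bases ahead of it in that order.
Cycs: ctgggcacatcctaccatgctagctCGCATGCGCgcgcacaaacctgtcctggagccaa
Atp5g2: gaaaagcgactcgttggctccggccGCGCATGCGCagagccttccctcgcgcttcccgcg
Ndufaf4: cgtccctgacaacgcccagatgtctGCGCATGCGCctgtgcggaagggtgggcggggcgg
Atp5k: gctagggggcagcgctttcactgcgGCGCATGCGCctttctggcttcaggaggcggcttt
Cox6a1: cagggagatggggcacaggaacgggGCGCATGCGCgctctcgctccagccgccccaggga
Atp5j: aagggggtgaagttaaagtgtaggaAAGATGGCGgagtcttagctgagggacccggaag
In Cycs the NRF1 letters match on the opposite strand only, and in the next 4 stretches they match on both strands. The Atp5j stretch ends in the ETS letters, left in lower case. Atp5k and Cox6a1 each had another probe set that rose on incubation, given with those genes, so the 5 NRF1 stretches are not a contrast of risen and unmoved genes.

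Complex I, the largest complex of the chain, had 33 tested subunits, of which 20 rose and 4 fell on incubation (17 and 0 in all 4 scalings). Among all tested probe sets 35.0% rose and 40.1% fell (33.8% and 22.8% in all 4 scalings). All 6 core subunits analysed here, which belong to the arm that carries the flavin and iron-sulfur clusters, had changes above 0 and 5 rose. Ndufv1, which binds NADH, rose by 0.25 ± 0.069 (adjusted p = 0.00576). Ndufs1, the largest iron-sulfur subunit, rose by 0.19 ± 0.057 (adjusted p = 0.00826), and Ndufs8, another iron-sulfur subunit, rose by 0.33 ± 0.063 (adjusted p = 0.000404). Quantile normalization left Ndufv1 at 0.14 (adjusted p = 0.0739) and Ndufs1 at 0.12 (adjusted p = 0.0834), short of the threshold. In the brightest probe sets the core rises were at most 0.33. Of the 5 other tested probe sets of Ndufs8, 4 rose, by 0.40 to 0.91, and both others of Ndufv1 rose.

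The larger rises were among the accessory subunits, which surround the core: 15 of 27 rose and 4 fell. These are 55.6% and 14.8%, against 35.0% and 40.1% of all tested probe sets. The share that rose is near that of all probe sets at signals of 2000 to 5000 (49.9%) and 5000 to 10000 (53.7%). Ndufb6, a subunit of the membrane arm, had signals of 4512, 4271 and 4182 in fresh arrays, 9280.0, 10117 and 9231 in incubated arrays and 9993, 10410.5 and 9523 in dexamethasone arrays. Every fresh array was below the other 6 arrays, and Ndufb6 rose by 1.14 ± 0.053 (adjusted p = 9.16e-10). For Ndufs4, an accessory subunit needed for a stable complex I, signals were 1493, 1379.8 and 1349 in fresh arrays, 3205, 3067 and 2951 in incubated arrays and 2049.7, 2166 and 2266 in dexamethasone arrays. The incubated arrays were the highest and the 3 groups did not overlap. Ndufs4 rose by 1.11 ± 0.059 (adjusted p = 2.8e-09) and fell by 0.50 ± 0.059 (adjusted p = 1.86e-05) with dexamethasone. A dimmer probe set of Ndufs4 went the other way, from 419, 379 and 374 in fresh arrays to 176, 148 and 161 in incubated arrays, so the direction holds for 2 of its 3 tested probe sets.

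Ndufa12, an accessory subunit added late in assembly, rose through both steps, with signals of 4001, 4102 and 4039 in fresh arrays, 7939.5, 8105 and 7558 in incubated arrays and 9066, 8997 and 9115 in dexamethasone arrays. It rose by 0.95 ± 0.042 (adjusted p = 5.67e-10) on incubation and rose by 0.20 ± 0.042 (adjusted p = 0.00146) with dexamethasone, although the second change turned to -0.29 under hybridization-control scaling. Of its 2 other probe sets 1 also rose on incubation and the other differed by 0.15 ± 0.13 (adjusted p = 0.322). The largest accessory falls on incubation were Ndufa13 (-0.31 ± 0.085, adjusted p = 0.00473), also known as the cell death regulator GRIM-19, and Ndufs5 (-0.27 ± 0.097, adjusted p = 0.0242). Neither fall was kept: with median centring the changes were 0.01 and 0.06. With dexamethasone the largest accessory falls were Ndufs4, given above, and Ndufa8 (-0.39 ± 0.055, adjusted p = 9.12e-05), a subunit of the intermembrane space side.

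Of the 8 complex I assembly factors, which help to build the complex and are not part of it, 5 rose on incubation and none fell, all 5 in every scaling. The shares over all tested probe sets were 35.0% and 40.1%. Ndufaf4, whose promoter stretch is printed above, had signals of 871, 879.6 and 833 in fresh arrays, 1865, 1665 and 2001 in incubated arrays and 1845, 1959 and 2131 in dexamethasone arrays. The fresh arrays stood below the others and the incubated and dexamethasone arrays overlapped. It rose by 1.07 ± 0.074 (adjusted p = 3.45e-08) and differed by 0.10 ± 0.074 (adjusted p = 0.265) with dexamethasone. Ndufaf6 rose by 0.98 ± 0.095 (adjusted p = 9.29e-07) from a level near the floor of 200, at 206, 194 and 167 in fresh arrays. With dexamethasone 4 of the 8 fell, led by Ndufaf5 (-0.62 ± 0.086, adjusted p = 7.4e-05) and Ndufaf2 (-0.47 ± 0.080, adjusted p = 0.00036). Ndufaf5, an enzyme that modifies a core subunit, had signals of 514, 489 and 547 in fresh arrays, 629, 671 and 632 in incubated arrays and 448, 412 and 366 in dexamethasone arrays, and the dexamethasone arrays lay below both other groups.

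Complex II, succinate dehydrogenase, showed its 4 subunits moving in opposite directions. Sdha, the flavoprotein that oxidizes succinate, had signals of 7777, 6997 and 8152 in fresh arrays, 5633, 4886 and 5501 in incubated arrays and 5107, 4568 and 4892 in dexamethasone arrays. Every fresh array was above every other array, and Sdha fell by 0.51 ± 0.069 (adjusted p = 1.96e-05). A second probe set of Sdha, which may also hybridize to related transcripts, fell by 0.50 ± 0.054 (adjusted p = 2.67e-06). Under hybridization-control scaling the fall was smaller, at -0.18 (adjusted p = 0.0532).

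Sdhb, the iron-sulfur subunit bound directly to Sdha, had signals of 4280.2, 4258 and 4600.4 in fresh arrays, 7862, 7318 and 7929 in incubated arrays and 7080.3, 6639.7 and 6912 in dexamethasone arrays. It rose by 0.81 ± 0.050 (adjusted p = 1.29e-08), with all incubated and dexamethasone arrays above the fresh ones. The membrane anchors Sdhc and Sdhd also rose, by 0.34 ± 0.057 (adjusted p = 0.000145) and 0.60 ± 0.082 (adjusted p = 2.2e-05). The log2 ratio of Sdhb to Sdha within an array, in which a scaling factor cancels, was 1.28 to 1.38 above its fresh mean in incubated arrays and 1.27 to 1.33 above it in dexamethasone arrays. Fresh arrays spanned -0.06 to 0.08. Of the 8 such ratios computed, each set against fresh in both groups, those printed here gave p = 0.10 in an exact two-sided permutation test, the smallest that 3 arrays against 3 allow, and 0.10 after Benjamini-Hochberg adjustment. The pairs were chosen after their values were seen, so the test adds no support.

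With dexamethasone, Sdhd of complex II had the largest fall among the brightest probe sets of these genes. Sdhd signals were 1549.9, 1249 and 1576 in fresh arrays, 2274, 2162 and 2203 in incubated arrays and 1189.7, 1312 and 1327 in dexamethasone arrays, and Sdhd fell by 0.78 ± 0.082 (adjusted p = 7.8e-06). A dimmer probe set of Sdhd differed by -0.29 ± 0.18 (adjusted p = 0.196), so the fall rests on its brighter probe set. There the dexamethasone arrays were all below the incubated arrays and overlapped the fresh ones, with a difference from fresh of -0.18 ± 0.082 (adjusted p = 0.0588). Sdhc signals were 2549, 2532 and 2457 in fresh arrays, 3379, 3283 and 2912 in incubated arrays and 2507, 2405 and 2457 in dexamethasone arrays, and Sdhc fell by 0.37 ± 0.057 (adjusted p = 0.00017), again with no overlap with incubated arrays. A dimmer probe set of Sdhc differed by -0.01 ± 0.10 (adjusted p = 0.935) with dexamethasone and by 0.22 ± 0.10 (adjusted p = 0.0621) on incubation. Sdhb fell by 0.16 ± 0.050 (adjusted p = 0.0166). Sdha differed by -0.14 ± 0.069 (adjusted p = 0.12) in its brighter probe set and fell by 0.62 ± 0.054 (adjusted p = 2.01e-06) in the second.

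**Figure D2:**
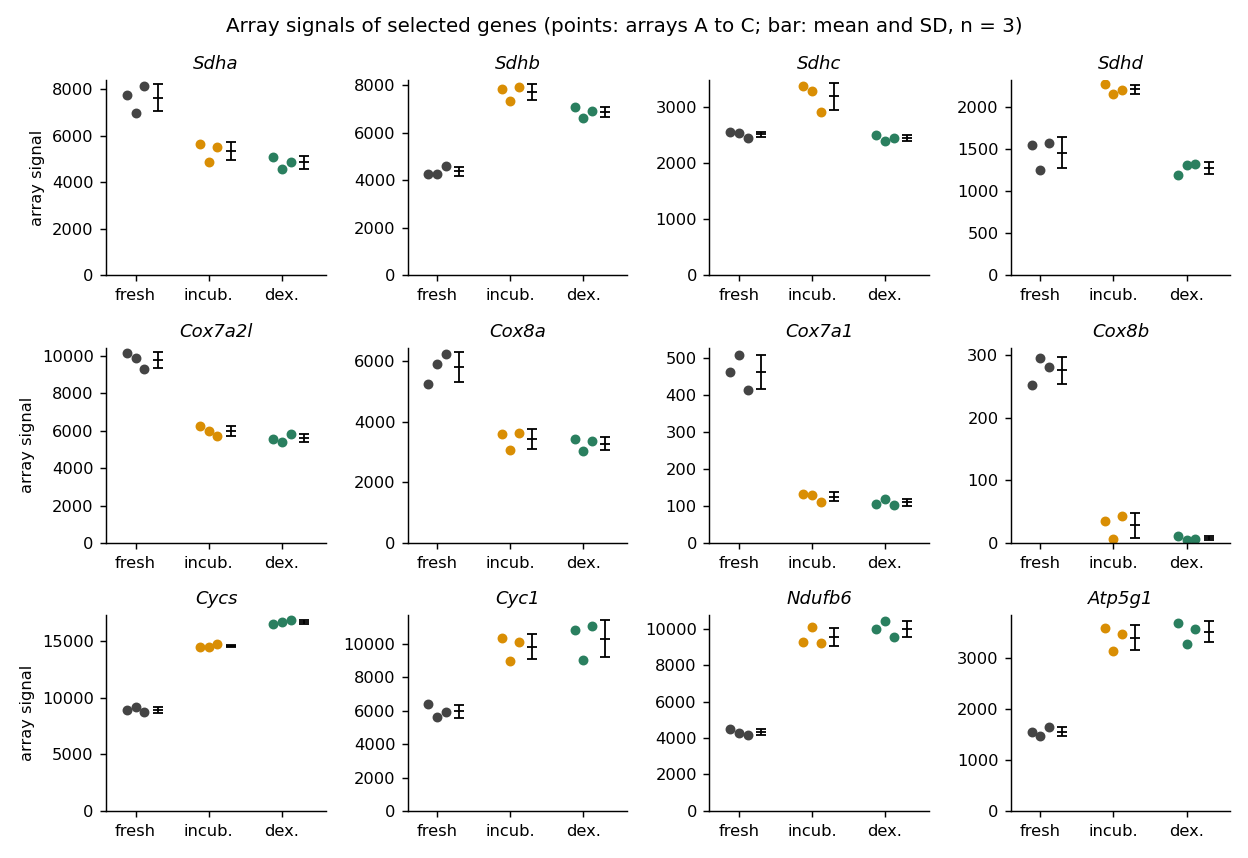
Array signals (linear, axis from 0) of 12 genes on the 9 arrays, 3 per group, with the mean and SD beside each group. Sdha, Cox7a2l, Cox8a, Cox7a1 and Cox8b are highest in fresh arrays, while Sdhb, Cycs, Cyc1, Ndufb6 and Atp5g1 are lowest there; Sdhc and Sdhd are highest in incubated arrays.

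Complex III had 9 tested subunits, of which 6 rose and 1 fell on incubation, the 6 rises in every scaling. The shares over all tested probe sets were 35.0% and 40.1%. Cyc1, the cytochrome c1 haem subunit, had signals of 6392, 5625 and 5900.1 in fresh arrays, 10374, 8979 and 10120.2 in incubated arrays and 10822, 9035 and 11074 in dexamethasone arrays, and rose by 0.71 ± 0.080 (adjusted p = 3.58e-06). Uqcrq, a small subunit, rose by 0.90 ± 0.047 (adjusted p = 2.31e-09), Uqcrc1, a large core protein, rose by 0.62 ± 0.051 (adjusted p = 1.93e-07), and Uqcrfs1, the Rieske iron-sulfur protein, rose by 0.55 ± 0.056 (adjusted p = 1.48e-06). For each of these 4 genes the incubated arrays lay above all fresh arrays. Uqcrb, the single fall (-0.19 ± 0.052, adjusted p = 0.00538), is uncertain: it became 0.14 with median centring. Its second probe set rose instead, from 3135, 3132 and 3179 in fresh arrays to 4900.1, 5426 and 5366 in incubated arrays.

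With dexamethasone 5 of the 9 complex III subunits fell, all in every scaling. Uqcrh, the hinge protein of complex III, had signals of 4031, 4065 and 4165 in fresh arrays, 5486, 5236 and 5271 in incubated arrays and 3819.5, 3799 and 4015 in dexamethasone arrays. The dexamethasone arrays lay below the incubated arrays, and below the fresh ones, and Uqcrh fell by 0.46 ± 0.044 (adjusted p = 4.08e-06). Its other probe set differed by -0.09 ± 0.10 (adjusted p = 0.465). Uqcrfs1 fell by 0.40 ± 0.056 (adjusted p = 7.83e-05) and Uqcrc1 fell by 0.34 ± 0.051 (adjusted p = 0.000137). Cyc1 and Uqcrq, which had risen most on incubation, differed by 0.07 ± 0.080 (adjusted p = 0.51) and -0.04 ± 0.047 (adjusted p = 0.462). Uqcrb rose by 0.18 ± 0.052 (adjusted p = 0.0112) in the brighter probe set, which turned to -0.31 under hybridization-control scaling, and fell by 0.23 ± 0.055 (adjusted p = 0.00425) in the other.

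Cytochrome c itself, the soluble carrier between complexes III and IV, rose. Cycs signals were 8895, 9193 and 8717 in fresh arrays, 14512, 14519.6 and 14734 in incubated arrays and 16553, 16680.4 and 16897 in dexamethasone arrays, so the 3 groups formed 3 separate levels with little spread. Cycs rose by 0.71 ± 0.040 (adjusted p = 5.24e-09), as did both its other tested probe sets (0.91 ± 0.054 and 0.14 ± 0.041, the smaller at 0.03 under quantile normalization). With dexamethasone it rose by 0.20 ± 0.040 (adjusted p = 0.0013), but this rise turned to -0.29 (adjusted p = 0.00139) under hybridization-control scaling. Its NRF1 stretch stands above.

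In complex IV, cytochrome c oxidase, 4 of 13 tested subunits rose and 4 fell on incubation, and 5 did not pass. These are 30.8% each way, against 35.0% and 40.1% of all tested probe sets. Of the 4 falls, 3 were of genes that passed the signal filter through the fresh arrays alone, for which a fall was the direction open to them, and the fourth was Cox8a. Ndufa4, once assigned to complex I and now counted with complex IV, had signals of 3653, 3819 and 3998 in fresh arrays, 7180.3, 6854 and 7438 in incubated arrays and 7257, 6817 and 7246 in dexamethasone arrays, and rose by 0.90 ± 0.051 (adjusted p = 5.24e-09). Cox5a, a subunit of the matrix face, had signals of 11842, 11613 and 11459.5 in fresh arrays, 15077, 15618 and 14619 in incubated arrays and 16454, 16876 and 15917 in dexamethasone arrays, and rose by 0.37 ± 0.043 (adjusted p = 4.71e-06). Cox4i1, the common form of the largest nuclear subunit, had signals of 12342 to 13828 over the 9 arrays and differed by -0.04 ± 0.048 (adjusted p = 0.445). Cox6b1 rose by 0.17 ± 0.051 (adjusted p = 0.00834), and Cox6a1 differed by -0.11 ± 0.058 (adjusted p = 0.0932) in its brighter probe set. The other probe set of Cox6a1 rose, from 5425, 5472 and 5295 in fresh arrays to 7256, 6820.3 and 8031 in incubated arrays, by 0.44 (adjusted p = 1.27e-05), in every scaling. The other probe set of Cox6b1 rose more, by 0.44. Cox6c differed by 0.07 ± 0.046 (adjusted p = 0.209) in its brightest probe set. Its other one rose by 0.41 ± 0.097 (adjusted p = 0.0019), in every scaling. Cox5b rose in its brightest probe set and in 2 of 4 others, and fell in 1. The counts for complex IV thus depend on the choice of the brightest probe sets.

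The falls included the widely expressed subunit Cox8a. Its signals were 5253, 5900.1 and 6225 in fresh arrays, 3608, 3055 and 3631 in incubated arrays and 3447, 3038 and 3368 in dexamethasone arrays. Every fresh array was above the other 6 arrays, and Cox8a fell by 0.75 ± 0.080 (adjusted p = 2.1e-06). Its other tested probe set fell by 0.76 ± 0.057 (adjusted p = 7.81e-08). The other 3 falls were tissue-restricted isoforms at low signal. Cox7a1, the heart and skeletal muscle form of subunit 7a, was at 463, 509 and 416 in fresh arrays and under 200 on every other array, so it fell at least 2.31-fold (adjusted p = 5.17e-08). Cox8b, the muscle form of subunit 8, was at 252, 294 and 280.1 in fresh arrays and fell at least 1.38-fold (adjusted p = 9.63e-07). Cox6b2, described as the testis form of subunit 6b, was barely above the floor in fresh arrays (219.8, 224 and 202) and fell at least 1.08-fold (adjusted p = 4.97e-05). The 4 tested skeletal muscle markers fell beside them, as given above, and their part in the falls of Cox7a1 and Cox8b was not tested.

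Among the remaining isoform pairs, Cox7a2, the widely expressed form of subunit 7a, differed by 0.00 ± 0.045 (adjusted p = 0.957) on incubation in its brighter probe set, while its other probe set rose by 0.28 ± 0.043 (adjusted p = 5.51e-05). Cox8c differed by -0.20 ± 0.12 (adjusted p = 0.167) at signals of 157 to 217. Cox4i2, Cox6a2 and Ndufa4l2 reached at most 79.8, 107 and 71.3 on any array. Cox7a2l, a relative of subunit 7a that joins complexes III and IV into supercomplexes, had signals of 10117, 9860.0 and 9265 in fresh arrays, 6254, 5964 and 5719 in incubated arrays and 5551, 5388 and 5821 in dexamethasone arrays. All fresh arrays were above the other 6, and Cox7a2l fell by 0.70 ± 0.052 (adjusted p = 6.37e-08). Its 2 other probe sets fell too, by 0.82 ± 0.048 and 0.68 ± 0.075. Within an array, the log2 ratio of Cox7a2 to Cox7a2l was 0.66 to 0.75 above its fresh mean after incubation, with fresh arrays at -0.07 to 0.08.

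With dexamethasone few complex IV subunits passed the test. In the brightest probe sets, of the 13 none fell, 2 rose and 11 did not pass, with a median of -0.01. The shares over all tested probe sets were 27.1% higher and 25.5% lower. Of the 4 other tested probe sets of Cox5b, 2 did not pass and 1 fell by 0.20 ± 0.051 (adjusted p = 0.00544). The remaining one, under 200 on every dexamethasone array, fell by 0.42 ± 0.14 (adjusted p = 0.0246). Both falls were kept in every scaling. Cox7a2 rose by 0.18 ± 0.045 (adjusted p = 0.00446) and Cox5a rose by 0.12 ± 0.043 (adjusted p = 0.0341), but under hybridization-control scaling these were -0.31 and -0.37. The other probe set of Cox7a2 differed by 0.00 ± 0.043 (adjusted p = 0.978), and of the 2 others of Cox5a, 1 rose and 1 differed by -0.10 ± 0.044 (adjusted p = 0.0833). Cox8a differed by -0.06 ± 0.080 (adjusted p = 0.548) and Cox7a2l by -0.10 ± 0.052 (adjusted p = 0.132). Both other probe sets of Cox7a2l fell with dexamethasone, by 0.15 (adjusted p = 0.0184) and 0.49 (adjusted p = 0.000178), the larger of these in every scaling.

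ATP synthase had 17 tested subunits, of which 12 rose and 2 fell on incubation (10 and 0 in every scaling). Among all tested probe sets 35.0% rose and 40.1% fell (33.8% and 22.8% in every scaling). In the catalytic F1 head, Atp5b, the catalytic beta subunit, had signals of 8394, 7751 and 8375 in fresh arrays, 11343, 10343 and 11242 in incubated arrays and 10414, 10512 and 11022 in dexamethasone arrays, and rose by 0.42 ± 0.051 (adjusted p = 7.3e-06). Fresh arrays were below all others. Atp5a1, the alpha subunit, was uncertain. Its brighter probe set fell by 0.23 ± 0.046 (adjusted p = 0.000575), with the sign turned under median centring (0.10) and hybridization-control scaling (0.11), and another rose by 0.26 ± 0.065 (adjusted p = 0.00312). The F1 subunit Atp5e rose by 0.36 ± 0.065 (adjusted p = 0.000216).

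The c ring, which turns as protons pass, is built from identical proteins encoded by 3 genes, and these moved unequally. Atp5g1 signals were 1555, 1468 and 1647 in fresh arrays, 3599, 3136 and 3468 in incubated arrays and 3691, 3283 and 3574 in dexamethasone arrays. It rose by 1.11 ± 0.066 (adjusted p = 8.73e-09), with no overlap between fresh and the other arrays. Atp5g2, which has the NRF1 letters, rose by 0.32 ± 0.051 (adjusted p = 8.76e-05), and Atp5g3 differed by 0.02 ± 0.051 (adjusted p = 0.775). Within an array, the log2 ratio of Atp5g1 to Atp5g3 was 1.06 to 1.15 above its fresh mean in incubated arrays and 1.14 to 1.23 above it in dexamethasone arrays, against -0.06 to 0.03 in fresh arrays.

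In the stalk, Atp5o, which joins the stalk to the head, rose by 0.49 ± 0.052 (adjusted p = 2.29e-06) and Atp5pb rose by 0.16 ± 0.057 (adjusted p = 0.0205). Under quantile normalization Atp5pb was at 0.06 (adjusted p = 0.448), short of the threshold, while its dimmer probe set rose by 0.70 ± 0.057 (adjusted p = 1.58e-07) as deposited. Atp5h fell by 0.15 ± 0.050 (adjusted p = 0.0162), but its change was 0.18 with median centring, and its other probe set differed by 0.07 ± 0.050 (adjusted p = 0.232). Of the small membrane subunits, Atp5l rose by 0.70 ± 0.10 (adjusted p = 2.96e-05) and Atp5md rose by 0.64 ± 0.14 (adjusted p = 0.00107). Atp5k, whose promoter also holds the NRF1 letters, differed by -0.13 ± 0.072 (adjusted p = 0.123) in its brightest probe set. Of its other probe sets 1 rose by 0.23 ± 0.054 (adjusted p = 0.00199) and 1 differed by 0.10 ± 0.051 (adjusted p = 0.0852), and with dexamethasone both fell, by 0.37 and 0.36. Atpif1, the inhibitor of ATP synthase and not one of the 92 genes, had signals of 4128, 3934 and 4094 in fresh arrays, 5619, 5949 and 5869.9 in incubated arrays and 5419, 5687 and 4969.5 in dexamethasone arrays and rose by 0.52 ± 0.054 (adjusted p = 1.69e-06), while with dexamethasone it differed by -0.12 ± 0.054 (adjusted p = 0.0814).

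**Figure D3:**
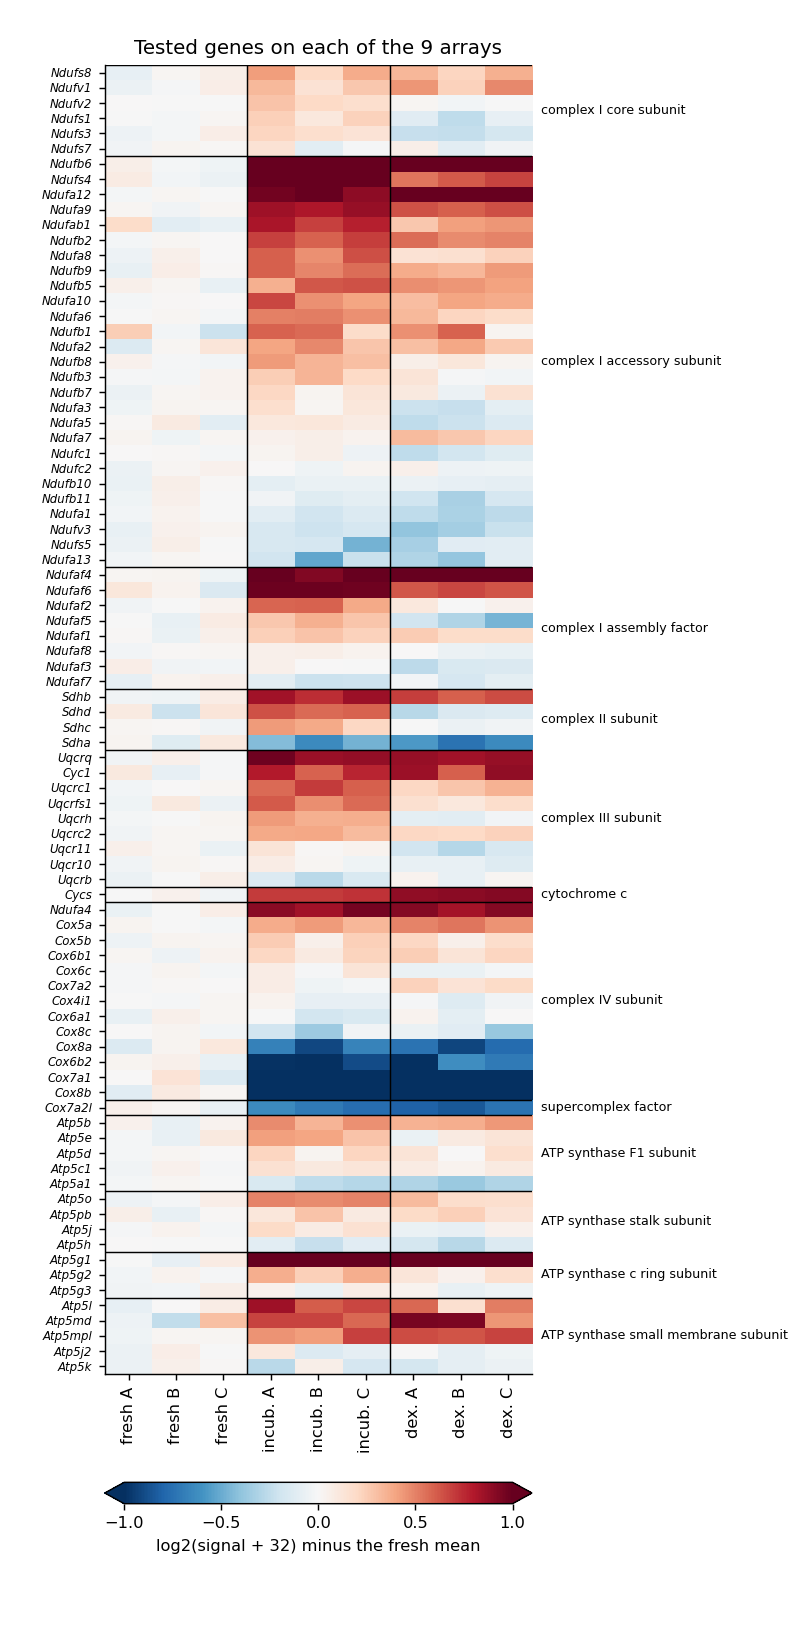
Log2(signal + 32) of the 86 tested genes on each of the 9 arrays, minus the gene's mean in fresh arrays, in blocks by role and ordered within a block by the change on incubation; the colour scale ends at a difference of 1 in either direction. Arrays of a group look alike, complex II splits between Sdha (blue) and the other 3 subunits (red on incubation), and the blue genes of complex IV stay blue with dexamethasone.

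Dexamethasone was compared with incubation alone, which holds the time in culture the same. Of the 86 genes 6 rose, 35 fell and 45 stayed short of the threshold. Sdhd fell most, and Ndufs4, Ndufaf5 and Uqcrh were among the other falls, while Cycs and Cox7a2 were among the rises. Of all tested probe sets 27.1% rose and 25.5% fell (52.5% called in total). The falls were kept in all 4 scalings for 33 genes, against 24.1% of all tested probe sets, and no rise was kept, against 7.12%. The changes were small, none reaching 2-fold, with a median of -0.10 against 0.01 for all tested probe sets. The median minus that of all tested probe sets was -0.103 as deposited and -0.112 under quantile normalization. Median centring (-0.103) and hybridization-control scaling (-0.126) could hardly change it, for the reason given for incubation. Groups did not overlap for 46 of the 86 genes, against 59.2% of all tested probe sets.

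By complex, the falls with dexamethasone in the brightest probe sets were 18 of 33 in complex I and 4 of 8 among its assembly factors. They were 3 of 4 in complex II and 5 of 9 in complex III. In complex IV they were 0 of 13 and in ATP synthase 5 of 17. The share over all tested probe sets was 25.5%, and the 29.4% of ATP synthase is close to it. Of the 6 core subunits of complex I 3 fell and 3 did not pass. Ndufs3 fell by 0.39 ± 0.049 (adjusted p = 3.51e-05) and Ndufs1 fell by 0.34 ± 0.057 (adjusted p = 0.000296). Ndufs3 signals were 2979.9, 3051 and 3238 in fresh arrays, 3596, 3478 and 3389 in incubated arrays and 2632, 2613 and 2729.8 in dexamethasone arrays, with the dexamethasone arrays below both other groups. In ATP synthase Atp5e fell by 0.31 ± 0.065 (adjusted p = 0.0015), Atp5o fell by 0.27 ± 0.052 (adjusted p = 0.000976), Atp5g2 fell by 0.21 ± 0.051 (adjusted p = 0.00401) and Atp5j, whose YY1 stretch is printed above, fell by 0.18 ± 0.048 (adjusted p = 0.00811). Atp5l also fell, by 0.29 ± 0.10 (adjusted p = 0.027). Quantile normalization left Atp5l at -0.24 (adjusted p = 0.0528), short of the threshold. Of 14 genes that fell and had another tested probe set, all others fell for 9 and none for 5, and at least 1 rose for 1. The other rises besides Cycs, Ndufa12, Uqcrb, Cox7a2 and Cox5a were of Ndufa7 alone (0.22 ± 0.045, adjusted p = 0.00124), and all 6 turned below 0 under hybridization-control scaling. All 6 had other tested probe sets, of which all rose for 1 gene and none for 3. By brightness, from the dimmest band to the brightest, 6 of 16, 16 of 25, 9 of 23 and 4 of 22 genes fell, against 23.9%, 37.0%, 28.9% and 9.49% of all probe sets.

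**Figure D4:**
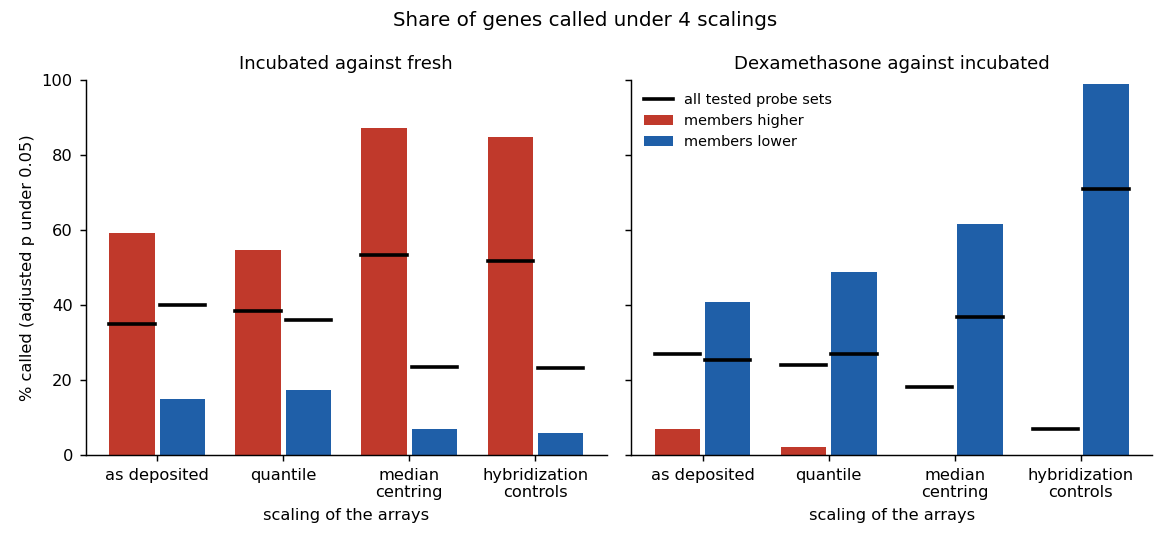
Share of the 86 genes (bars) and of all tested probe sets (black lines) called higher or lower at an adjusted p under 0.05, with arrays scaled as deposited and in 3 other ways. On incubation the share of these genes that rose exceeds that of all probe sets in each scaling, and with dexamethasone the same holds for the share that fell, while the absolute shares move with the scaling.

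Dexamethasone and fresh arrays were compared as well. This comparison shares its arrays with the other 2 and adds no independent sample. Of the 86 genes 37 rose and 20 fell, against 37.8% and 38.4% of all tested probe sets (76.2% called). In all 4 scalings 23 rises and 6 falls were kept, against 29.0% and 28.2%, and groups did not overlap for 64 of the 86, against 77.9%. The median of 0.06 turned to -0.03 under quantile normalization and -0.09 under hybridization-control scaling, so the sign of the median was not settled. For single genes it was settled: Ndufb6 (1.20 ± 0.053, adjusted p = 4.6e-10), Atp5g1 (1.16 ± 0.066, adjusted p = 5.04e-09), Cycs (0.90 ± 0.040, adjusted p = 4.73e-10) and Sdhb (0.65 ± 0.050, adjusted p = 9.69e-08) were higher and Cox8a (-0.81 ± 0.080, adjusted p = 9.21e-07), Cox7a2l (-0.80 ± 0.052, adjusted p = 1.67e-08) and Sdha (-0.65 ± 0.069, adjusted p = 2.07e-06) lower, each in all 4 scalings.

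Genes that serve the respiratory chain were described from lists. Of 37 tested assembly factors other than the Ndufaf genes, 22 rose and 7 fell on incubation (21 and 1 in every scaling), with a median of 0.38 against -0.05 for all tested probe sets. The largest rises were Coa7 (1.52 ± 0.11, adjusted p = 7.37e-08) and Sco2 (1.33 ± 0.17, adjusted p = 9.61e-06), both factors for complex IV, and the largest falls were Atpaf1, a chaperone of the F1 head, and Sdhaf4 (-0.44 ± 0.058, adjusted p = 1.6e-05), a complex II factor that binds Sdha. Atpaf1 fell from 1000.3, 1098 and 1086 in fresh arrays to 514, 501 and 534 in incubated arrays (adjusted p = 2.04e-08). The fall of Sdhaf4 did not pass with median centring (-0.11). With dexamethasone 6 rose and 14 fell (1 and 13 in every scaling, median -0.19 against 0.01), including Sdhaf4 (-0.57 ± 0.058, adjusted p = 5.81e-06) and Sdhaf2 (-0.53 ± 0.091, adjusted p = 0.000362), while Ttc19 (0.91 ± 0.077, adjusted p = 1.39e-06), a complex III factor, had the largest rise. Of 18 tested protein import genes 14 rose and 1 fell on incubation, with Timm8a1 (1.43 ± 0.059, adjusted p = 2.83e-10) and Timm17a (1.03 ± 0.062, adjusted p = 9.33e-09) rising most and a median of 0.54. For these and the assembly factors, the shares over all tested probe sets on incubation were 35.0% and 40.1%. The single fall of an import gene, Tomm34 (-0.40 ± 0.082, adjusted p = 0.000603), did not pass with median centring (-0.07). With dexamethasone 5 import genes rose and 5 fell, 0 and 4 of them in every scaling, which is close to the 27.1% and 25.5% of all tested probe sets.

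Of 16 tested pyruvate dehydrogenase and TCA cycle genes, 9 rose and 2 fell on incubation (9 and 0 in every scaling, median 0.33) and 2 rose and 10 fell with dexamethasone (0 and 9, median -0.21). Suclg1, a subunit of succinyl-CoA ligase, which makes the succinate used by complex II, had signals of 3053, 3193 and 3041 in fresh arrays, 5286, 5209 and 5086 in incubated arrays and 3183, 3198 and 3582 in dexamethasone arrays. It rose by 0.74 ± 0.053 (adjusted p = 4.98e-08) and fell by 0.64 ± 0.053 (adjusted p = 1.16e-06) with dexamethasone. Dld, a subunit shared by pyruvate dehydrogenase and related complexes, fell by 0.61 ± 0.065 (adjusted p = 9.57e-06) with dexamethasone. Of 12 tested carriers 6 rose and 2 fell on incubation (6 and 0 in every scaling) and 1 rose and 4 fell with dexamethasone (0 and 4). The carrier medians were 0.175 and -0.037. Over all tested probe sets 35.0% rose and 40.1% fell on incubation, and 27.1% rose and 25.5% fell with dexamethasone. The share of carriers that fell with dexamethasone is near the latter. The aspartate-glutamate carrier Slc25a13, under 200 on every fresh array, rose at least 1.47-fold on incubation (adjusted p = 2.46e-06). Slc25a13 passed the signal filter through arrays of cultured tissue alone, so a rise was the direction open to it.

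Of 20 tested regulators of mitochondrial biogenesis, 4 rose and 8 fell on incubation, against 35.0% and 40.1% of all tested probe sets (3 and 4 in every scaling, median -0.15). Ppargc1a, the coactivator that induces respiratory genes together with nuclear receptors, had signals of 1579, 1812 and 1641 in fresh arrays, 521, 556 and 576 in incubated arrays and 674, 602 and 564 in dexamethasone arrays. Fresh arrays were the highest, and Ppargc1a fell by 1.55 ± 0.080 (adjusted p = 2.31e-09). Esrrg, an orphan nuclear receptor that works with it, was at 447, 439.5 and 455 in fresh arrays and under 200 on every incubated array, so it fell at least 2.23-fold (adjusted p = 5.67e-08). All 21 listed regulators reached 200 on a fresh array, against 19 on an incubated and 19 on a dexamethasone array. Where the fresh arrays alone carried a gene past the signal filter, a fall was the direction open to it. Pprc1, a related coactivator, rose by 1.53 ± 0.066 (adjusted p = 4.61e-10), and Yy1 rose by 0.35 ± 0.050 (adjusted p = 3.51e-05). Nrf1 and Gabpa, whose motifs are described above, differed by -0.02 ± 0.12 (adjusted p = 0.866) and -0.14 ± 0.077 (adjusted p = 0.124). With dexamethasone 6 regulators rose and 3 fell, against 27.1% and 25.5% of all tested probe sets, 0 and 3 of them in every scaling. Tfam, the packaging and transcription factor of mitochondrial DNA, had signals of 1390.2, 1341 and 1253 in fresh arrays, 1356, 1463 and 1252 in incubated arrays and 877, 946 and 829.9 in dexamethasone arrays and fell by 0.60 ± 0.073 (adjusted p = 2.68e-05). All its dexamethasone arrays were below the other 6. Ppargc1b, a further coactivator, fell by 0.64 ± 0.12 (adjusted p = 0.000917) and Yy1 fell by 0.50 ± 0.050 (adjusted p = 5.96e-06).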

How the data were processed

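Pooled membrane RNA was amplified in 2 rounds before labelling, per the labels' protocols. The deposited values are intensity signals per probe set on a linear scale, and every array was brought to a target signal of 500 by the authors, per the labels. The software that made them is not given in the sources used here. Of 45101 probe sets, 34945 had a single gene symbol in the annotation used here, which can be old. The 92 genes had 184 probe sets of their own, and 10 probe sets shared between genes were left out.

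Log2(signal + 32) was fitted in limma 3.58.1 (R 4.3.3) with a mean per group over all 9 arrays, eBayes with a trend and Benjamini-Hochberg adjustment over 18913 probe sets. Probe sets under 200 on more than 6 arrays and control probe sets were left out. Where all arrays of a group lay under 200, the fold was taken against 200 as a lower bound. The fit was tested on simulated data. Scaling to hybridization controls used 9 control probe sets. Exact permutation tests of ratios used SciPy 1.17.1. Alternatives were other scalings, pseudocounts, signal floors, choices of probe set, eBayes without the trend, a block by letter, the compared groups alone and leaving out each array.

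The genes, lists, motifs and tests were chosen with earlier results of these data known. The naming rule took defining subunits, isoform families, the inhibitor of ATP synthase and, for each role and list in each main comparison, up to 2 of the largest rises and falls whose arrays did not overlap. Ndufb4, Cox5b, Cox6c, Cox7b2, Cox7c, Atp5k, Nrf1, Gabpa, Msln, Ndufa1, Ndufv3, the fall of Yy1, second probe sets and the pairs set in ratio were chosen after their values were seen.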

Additional observations from a re-analysis of the deposited data

How the results depend on the processing

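Scaling moved the counts most. On incubation the 13 falls became 6 with median centring and 5 with hybridization-control scaling. The median change of 0.21 became 0.14 (quantile), 0.53 (median centring), 0.54 (hybridization controls), 0.18 (no filter), 0.28 (mean of probe sets) and 0.26 (brightest probe set not ending in _s_at or _x_at), and 0.19 to 0.28 with an array left out. With dexamethasone against incubated, the 6 rises became 2, 0 and 0 and the median -0.13, -0.21 and -0.58 under quantile, median and hybridization-control scaling, and the 35 falls became 53 and 85 under the last 2. The median was -0.14 with the mean of probe sets. For dexamethasone against fresh the 20 falls became 34, 6 and 35 under those 3 scalings, and the 37 rises became 60 with median centring and 23 with hybridization controls. Its median was -0.028, 0.27 and -0.092 under them and 0.12 with the mean of probe sets.

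Among the named genes, the calls that turned direction were, on incubation, Atp5h (0.18 with median centring, 0.19 with hybridization controls), Uqcrb (0.14 with median centring, 0.27 with the mean of probe sets) and Atp5a1 (0.26 with the brightest probe set not ending in _s_at or _x_at). With dexamethasone against incubated and hybridization-control scaling they were Cox5a (-0.37), Cox7a2 (-0.31), Cycs (-0.29), Ndufa12 (-0.29), Ndufa7 (-0.27) and Uqcrb (-0.31), and against fresh Ndufs4 (-0.16 with the mean of probe sets). On incubation Ndufa1 (-0.14) and Ndufv3 (-0.18) also turned with median centring, to 0.18 and 0.15, and Ndufa1 with hybridization controls, to 0.19. The cause was not tested.

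Over all probe sets, 6620 rose and 7593 fell on incubation as deposited, against 10110.0 and 4455 with median centring and 9799 and 4382 with hybridization controls. With dexamethasone against incubated, 5116 and 4820.0 became 3464 and 6954, then 1347 and 13413. Against fresh, 7156 and 7263 became 9341 and 5339, then 5490.0 and 8491. Same-letter arrays had deviations correlated at -0.06 to 0.16, against -0.16 to 0.15 for other letters, so a letter is only a name. With the letter as a replicate block the counts were 51 and 13, 6 and 36, and 38 and 20. Pseudocounts, floors, eBayes without the trend and the 2 groups alone moved no count of these genes by over 1.5 times.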
